A study of Homo sapiens with 9 samples.

Results

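Subtelomeric chromatin, taken as the outermost 2 Mb of each chromosome end, was examined by Hi-C in growing IMR90 fibroblasts and in the same cells during RAS-induced senescence (RIS). A chromosome end began at the first or last 40 kb bin with values on an autosome, and every bin within 2 Mb of it with values in all 5 Hi-C libraries was taken. The p ends of chromosomes 13, 14, 15, 21 and 22 were left out. The rule used positions only, and gave 1770 of 65957 autosomal bins, in 39 ends (17 p ends and 22 q ends). The growing group held 3 libraries and the RIS group 2. IMR90 is a normal human lung fibroblast strain, used here at passage 20-25. All 5 libraries came from cells that carry a stably introduced fusion of mutant HRAS (G12V) to the oestrogen receptor, and growing library 3 carried an MSCV vector as well. Growing cells received no 4-hydroxytamoxifen (4OHT), while RIS cells received 100 nM of it for 6 days, which switches the fusion on. As the vehicle and the drug alone were not compared here, drug and RAS cannot be told apart. Hi-C reports no expression, so cell type markers were not at hand to test the labels.

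Human chromosomes end in tandem repeats of TTAGGG that are bound by the shelterin complex. Inside them lie subtelomeres, which are rich in genes and in GC and hold duplicated blocks copied between ends. Looping of a telomere to genes at a distance is known to influence their expression, and the genes reported to respond to telomere length in this way include ISG15, TERT, SORBS2, DSP and C1S. RAS-induced senescence is a stable arrest set off by an active oncogene, during which heterochromatin is known to be rearranged and secreted factors are induced.

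Telomere-type repeats were more frequent in these bins than elsewhere, and inside the ends lay mostly near the edge. Runs of at least 4 TTAGGG (or CCCTAA on the other strand) were found in 24 of the 1770 end bins (1.36%). Outside the ends 26 of 64187 bins held one (0.0405%), and of all 65957 bins 50 did (0.0758%). The ends held 70 such runs, which lay in 19 of the 39.

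Sequence shared between ends was counted as well. Of the 31-base words of an end, 2.78% to 12.3% were also present in another end (median 5.74%). This share includes common repeats and was not measured for interior windows. Whether it is particular to ends was thus not tested. The examples below, read from the plus strand of GRCh37, are each the first 60 bases of a stretch shared by 2 ends. Every 31-base word of the stretch occurs in both, and may occur in a further end. The opening bases, those shown included, were matched to the other end without a break, and the full lengths were not. They are shown because a read that lies wholly inside the bases shown matches both ends. The part of such reads in the results was not tested. The 12p stretch (482 bases, from chr12:186545-186604) matches the minus strand of 20q. The 15q stretch (1207 bases, from chr15:102483487-102483546) matches the minus strand of 19p. The 4q stretch (702 bases, from chr4:191002255-191002314) lies in the D4Z4 repeat array and has 6 matches to these bases on 10q.
12p and 20q: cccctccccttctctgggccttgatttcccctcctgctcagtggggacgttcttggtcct
15q and 19p: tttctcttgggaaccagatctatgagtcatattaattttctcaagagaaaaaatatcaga
4q and 10q: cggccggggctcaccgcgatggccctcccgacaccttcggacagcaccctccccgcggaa

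Ends held 24 to 50 bins with values out of 50 (median 48), the fewest at 19p (24), 1p (31), 8q (34) and 16p (35). Their GC content was 36.8% to 56.9% (median 48.8%). They held on average 15.6 starts of protein-coding genes per Mb. The other 2 Mb windows with at least 25 bins were divided by the sign of their A/B score, the first component of the contact pattern, which separates open (A) from closed (B) chromatin. The 700 interior A windows held 9.03 gene starts per Mb and the 601 interior B windows 4.33. Because the ends were richer in GC than either, the 54 interior windows with a GC content at or above that of the median end stand beside them below. HindIII, the enzyme that cut the DNA, has on average 8.84 sites per bin in the ends, 7.72 in the GC-rich interior, 11.3 in interior A and 12.4 in interior B windows. Coverage of end bins before balancing averaged 0.66 below the median bin on the log2 scale in growing and 0.61 below it in RIS cells. Balancing evens out this coverage. The part of GC, cutting sites and coverage in the results was not tested.

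The libraries held 154318992, 175410468 and 180775315 contacts (growing) and 109967509 and 150689993 contacts (RIS), as recovered from the balanced values. Contacts between different chromosomes made up 7.95%, 8.21% and 7.61% of the balanced signal in the growing and 10.2% and 9.89% in the RIS libraries (two-sided exact permutation test, p = 0.1, the smallest that 3 against 2 libraries can give). Growing library 3 and RIS library 2 held many duplicates by the study's read statistics and the other 3 few, and some differences are also given within each of these classes. The class with many duplicates compares a single library of each group. Growing library 3 also carried the MSCV vector, so vector and RIS cannot be told apart within that class.

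Of end bins, 62.5%, 63.1% and 62.0% had a positive A/B score in the growing and 68.7% and 69.7% in the RIS libraries. The groups did not overlap. Over all bins the share also went up, from 50.6% ± 0.378 (SD, n = 3) to 55.4% ± 0.062 (SD, n = 2). The scores of single ends moved both ways, with the largest rise at 7q (-0.40 to 0.03) and the largest fall at 3q (1.30 to 0.97). The study itself, with its own compartment calls, found almost no change in how A and B were distributed.

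Local contacts of the ends lay higher in RIS cells at short and lower at long distances. Values are log2 of the observed contact inside a 2 Mb window over that expected at the same distance from all autosomal pairs of the same library. At 40-200 kb the mean of the log2 values of the ends was 0.18, 0.20 and 0.17 in the growing and 0.26 and 0.23 in the RIS libraries (mean difference 0.06, median over ends 0.07). At 240-600 kb it was 0.02, 0.08 and 0.02 in the growing and -0.02 and -0.08 in the RIS libraries. At 640 kb-1.2 Mb it was -0.26, -0.19 and -0.16 in the growing and -0.46 and -0.54 in the RIS libraries (mean difference -0.30, median -0.28). Over 1.2 Mb it was -0.55, -0.39 and -0.26 in the growing and -0.88 and -0.91 in the RIS libraries (mean difference -0.50, median -0.46). The groups did not overlap in any of these bands. The directions at 40-200 kb and 640 kb-1.2 Mb were the same within the libraries with few (0.07 and -0.24) and with many duplicates (0.06 and -0.38). The log2 of the mean contact over ends, in which ends with high contact weigh most, differed by 0.06 at 40-200 kb, -0.17 at 640 kb-1.2 Mb and -0.18 over 1.2 Mb.

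At 640 kb-1.2 Mb the mean of the log2 differences was -0.32 over the 22 q ends and -0.26 over the 17 p ends, and over 1.2 Mb it was -0.62 and -0.34. Whether the arms differ was not tested. As log2 of the mean contact over windows, the differences of interior A windows were 0.04, 0.04, 0.06 and 0.04 in order of distance, and those of interior B windows -0.05, -0.05, -0.04 and -0.02. On the same scale the GC-rich interior windows went from 0.32 to 0.41 at 40-200 kb and from -0.51 to -0.67 at 640 kb-1.2 Mb. The mean of their log2 differences was 0.09 at 40-200 kb, -0.06 at 240-600 kb, -0.24 at 640 kb-1.2 Mb and -0.51 over 1.2 Mb, beside 0.06, -0.09, -0.30 and -0.50 in the ends.

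**Figure D1:**
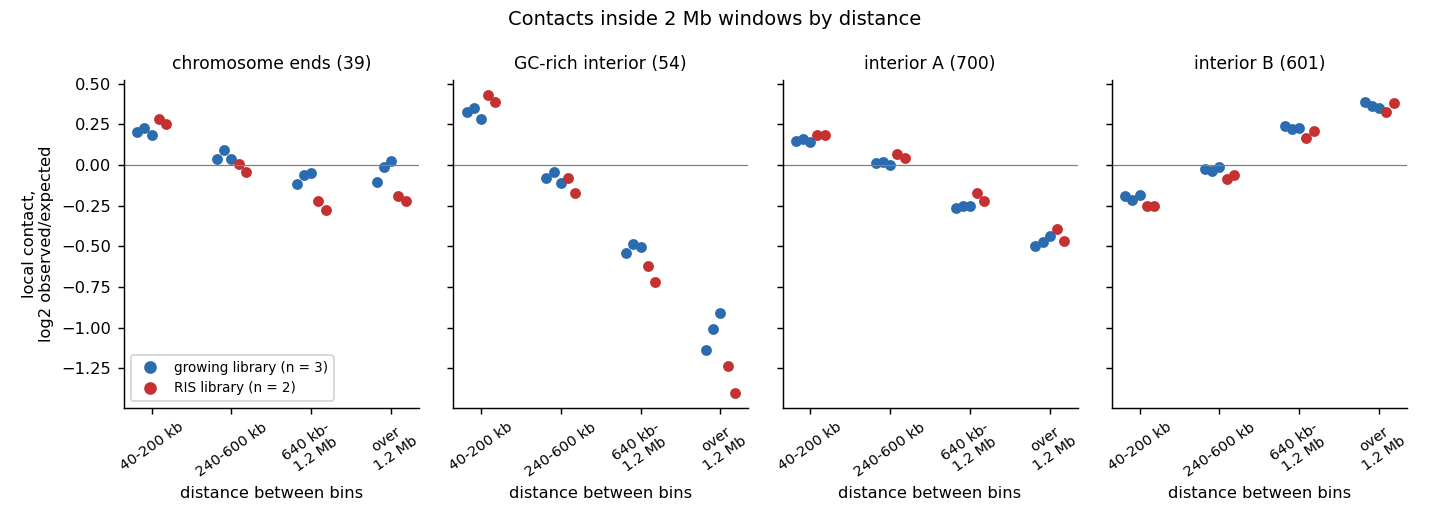
Local contact (log2 of the mean observed over expected of the windows) by distance between bins, with 1 point per library, in the 39 chromosome ends, the 54 GC-rich interior windows, the 700 interior A and the 601 interior B windows. In the ends and the GC-rich interior the RIS points lie above the growing ones at 40-200 kb and below them at 640 kb-1.2 Mb.

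Single ends were tested with limma in a fit over all windows, with Benjamini-Hochberg adjustment at 5%. At 40-200 kb, 22 of 39 ends rose and 2 fell, against 38.7% of all windows called higher and 31.6% called lower. At 240-600 kb, 9 rose and 17 fell (all windows 31.5% and 24.5%). At 640 kb-1.2 Mb, 3 rose and 23 fell (29.6% and 27.8%). Over 1.2 Mb, 3 rose and 23 fell (19.8% and 26.3%). The falls at 240-600 kb were 11 without RIS library 2, and the rises at 640 kb-1.2 Mb 1 without growing library 2. In all, 10 ends rose at 40-200 kb and fell at 640 kb-1.2 Mb, and 2 rose in both.

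The steepest rise at 40-200 kb was at 7q, which stood at -0.10, -0.12 and -0.11 in the growing and 0.09 and 0.10 in the RIS libraries (difference 0.20, SE 0.017, adjusted p = 1.91e-27 by limma). Contacts of 11q moved from -0.04, -0.02 and -0.00 to 0.17 and 0.13. At 10q they moved from 0.04, 0.08 and 0.03 to 0.23 and 0.22. The groups lay apart at these 3 ends. The exceptions were 3p and 18p. At 3p the libraries stood at -0.46, -0.49 and -0.40 in the growing and -0.67 and -0.66 in the RIS libraries (difference -0.21, SE 0.034, adjusted p = 2.32e-09 by limma). At 18p the difference was -0.09 (SE 0.018). The ends of this paragraph were taken for the size of their difference. Their p-values rest almost wholly on a spread pooled over all windows, and not on that of the end itself.

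At 640 kb-1.2 Mb the lowest differences were at 1p, 8q and 9q. At 1p the libraries stood at -1.70, -1.62 and -1.06 in the growing and -3.08 and -2.53 in the RIS libraries (difference -1.34, SE 0.213, adjusted p = 0.000358 by limma), on 27 to 150 contacts per library. At 8q they stood at 0.09, 0.08 and 0.03 in the growing and -0.72 and -1.24 in the RIS libraries (difference -1.05, SE 0.107, adjusted p = 3.97e-05 by limma), on 120 to 362 contacts. At 9q they stood at -1.43, -1.13 and -1.01 in the growing and -1.78 and -2.43 in the RIS libraries (difference -0.92). The RIS libraries lay below all growing libraries at the 3 ends. The ends that rose were 8p, 9p and 2p. At 8p the libraries stood at 0.73, 0.71 and 0.75 in the growing and 1.05 and 0.99 in the RIS libraries (difference 0.29, SE 0.032, adjusted p = 6.78e-05 by limma). The p and q ends of chromosome 8 thus moved in opposite directions, as did those of chromosome 9, where 9p differed by 0.12.

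The difference at 640 kb-1.2 Mb went with the GC content of the end. Over the 39 ends Pearson's r was -0.65 and Spearman's rho -0.71, as a description, since the ends share libraries and depth. The 20 ends with the higher GC content had a median difference of -0.47 and the 19 others of -0.04. The GC-rich interior windows had a median of -0.18. At 40-200 kb r was 0.19 and rho -0.06 over the ends. Over the 1301 interior windows r was -0.03 (rho 0.09) at 640 kb-1.2 Mb and 0.79 (rho 0.88) at 40-200 kb. Whether the relation differs between ends and interior was not tested. Coverage and gene density, which go with GC, were correlated with it as well, and their parts were not tested.

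**Figure D2:**
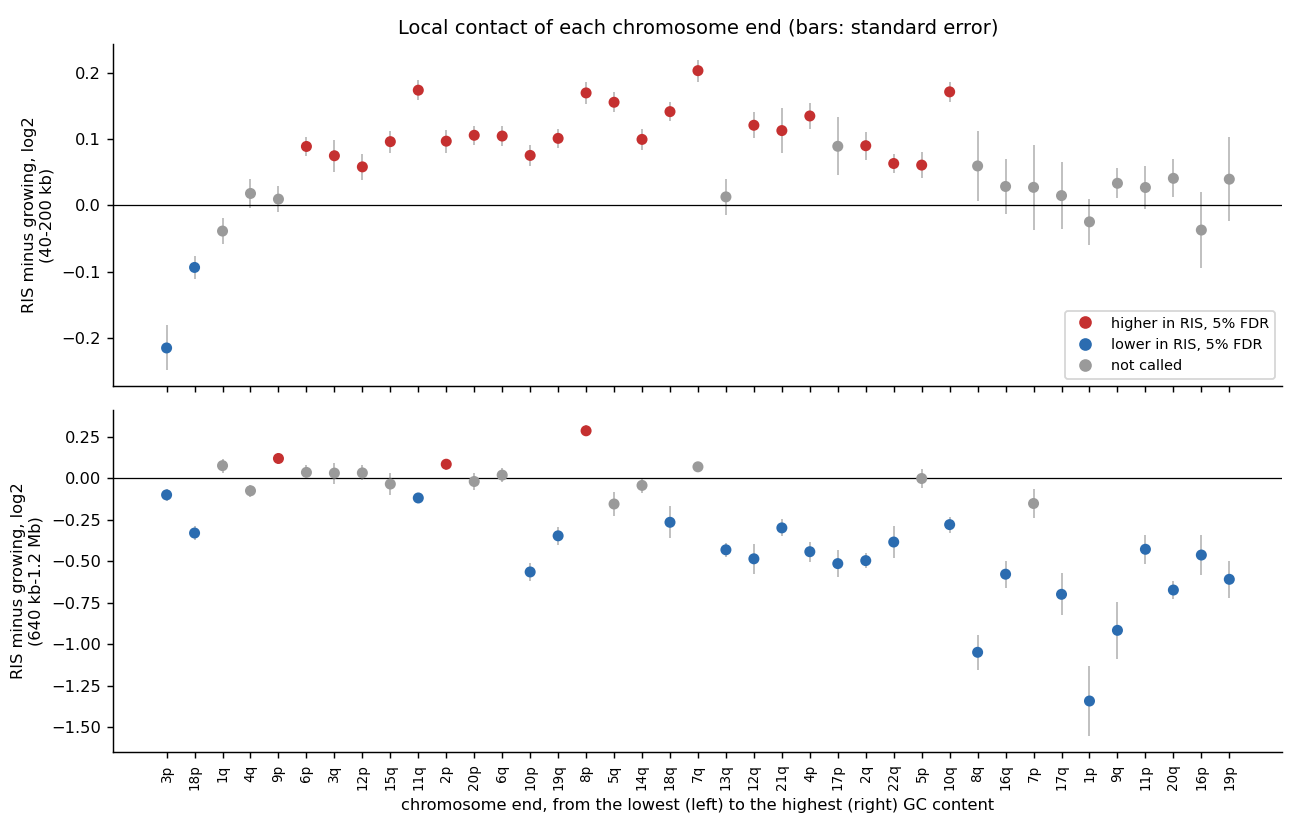
Difference in local contact between RIS and growing cells (log2, bars: standard error) of each of the 39 ends, in order of GC content, at 40-200 kb (top) and 640 kb-1.2 Mb (bottom), coloured by the limma call. In the top panel 22 ends rose, and the larger rises lie in the middle of the range of GC. At the lowest GC content 3p (-0.21) and 18p (-0.09) fell, and at the highest 19p (0.04) and 16p (-0.04) differed little. In the bottom panel the 23 ends that fell crowd at the GC-rich side.

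Taken over all distances, with each pair of bins weighted alike, 5 ends rose and 21 fell (31.4% and 24.8% of all windows). The lowest were 8q (-0.47), 1p (-0.41), 9q (-0.35), 17q (-0.31) and 16p (-0.31), and the highest 8p (0.25), 9p (0.15), 15q (0.13), 2p (0.09) and 6p (0.08). The contacts of 10q (-0.14) and 11p (-0.19) also fell, whereas 4q (-0.04, adjusted p = 0.24 by limma) and 5p (-0.00, adjusted p = 0.973 by limma) were not called. These counts differed between settings. Fitted by voom to recovered contacts summed over each window, which also gives the many short contacts more weight, 24 ends were called higher and 2 lower (45.1% and 31.9% of all windows), and the values of 8q, 1p, 9q, 17q, 5p, 10q and 11p turned to 0.060, 0.012, 0.046, 0.013, 0.076, 0.12 and 0.025.

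For single 40 kb bins and their contacts within 1 Mb, 191 of 1764 end bins tested rose and 404 fell, against 14.1% and 16.9% of all bins. Within 500 kb of the edge 64 of 461 bins rose and 85 fell. From 500 to 1000 kb 42 of 412 rose and 105 fell, from 1000 to 1500 kb 36 of 451 rose and 123 fell, and from 1500 to 2000 kb 49 of 440 rose and 91 fell. With contacts up to 400 kb the balance turned, to 322 bins higher and 182 lower (12.9% and 17.7% of all bins). Without RIS library 1 the rises within 1 Mb were 113.

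Genes were read by the bin of their start, since these data hold no expression values. Of the listed genes, 18 had a tested bin inside an end, in 16 bins, of which 6 genes in 5 bins fell and 0 rose by limma within 1 Mb (16.9% and 14.1% of all bins). A further 7 (IRF7, HRAS, COL18A1, COL6A1, STK11, HBA1 and HBA2) lay in bins without values, and SORBS2, DSP and C1S lay outside every end. Among interferon response genes 1 of 5 fell. It was ISG15, a ubiquitin-like protein induced by interferon, and it shares its bin (chr1:920001-960000) with AGRN, which encodes the basement membrane proteoglycan agrin. That bin stood at 0.52, 0.43 and 0.34 in the growing and 0.16 and 0.16 in the RIS libraries (difference -0.27, SE 0.052, adjusted p = 0.00425 by limma). The bin of IFITM1 and IFITM2, membrane proteins that block virus entry, differed by -0.24 (adjusted p = 0.177 by limma, and 0.13 with an adjusted p of 0.27 with contacts up to 400 kb), that of IFITM3 by 0.02 and that of IRF4, a transcription factor of immune cells, by -0.00.

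Among extracellular matrix and growth factor genes 2 of 4 fell, AGRN and PDGFA, which encodes a mitogen of fibroblasts (difference -0.19, adjusted p = 0.0333 by limma). The bin of PDGFA stood at 0.21, 0.37 and 0.32 in the growing and 0.18 and 0.04 in the RIS libraries. COL6A2, a chain of collagen VI, and SERPINF1, a secreted inhibitor of vessel growth, differed by -0.11 and -0.02 and were not called.

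Among signalling and proliferation genes 3 of 7 fell. The bin of NOTCH1, a receptor that directs cell fate, stood at -0.84, -0.46 and -0.41 in the growing and -1.24 and -1.08 in the RIS libraries (difference -0.59, SE 0.12, adjusted p = 0.00461 by limma). That of FGFR3, a receptor of fibroblast growth factors, differed by -0.31, and that of RTEL1, a helicase that unwinds telomeric loops, by -0.39 (adjusted p = 0.0167 and 0.0193 by limma). In these bins every RIS library lay below every growing one. TERT, the catalytic subunit of telomerase, differed by 0.00, FLT4, a receptor for lymphatic growth factors, by 0.09, AXIN1, a scaffold of the Wnt pathway, by 0.08 and TYMS, an enzyme of thymidylate synthesis, by -0.02. None of these 4 was called. Of the genes of the 4q repeat region, FRG1 differed by 0.14 and DUX4, a germline transcription factor inside D4Z4, by -1.45 with an SE of 2.9, and 0 of 2 were called. With contacts up to 400 kb, 2 genes fell (ISG15 and AGRN, 17.7% of all bins) and 3 rose (IFITM3 by 0.23, IRF4 by 0.15 and AXIN1 by 0.14, 12.9% of all bins). DUX4 gave no value there.

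The 5 genes reported to respond to telomere length were also read by their contact with the 10 outermost bins with values of their arm. The bin of ISG15 is itself among the 10, so its value rests on the 9 others, about 0.16 Mb away. These are local contacts, which are also part of its bin value above. For TERT, SORBS2, C1S and DSP the distance was about 1.12, 3.92, 6.88 and 7.24 Mb. The contact of ISG15 was 0.45, 0.35 and 0.40 in the growing and 0.15 and 0.07 in the RIS libraries (log2 observed over expected). The groups lay apart (two-sided exact permutation test, p = 0.1, the smallest that this design allows, in 5 genes compared), but with the 5 outermost bins the difference of -0.29 turned to 0.07. TERT differed by -0.14 (exact permutation p = 0.8) and SORBS2, an actin-binding adaptor several Mb inside 4q, by 0.16 (exact permutation p = 0.6). The desmosomal gene DSP differed by -0.00 (exact permutation p = 1). The complement gene C1S rested on 1 to 7 contacts per library (-0.94, exact permutation p = 0.6). In these 4 genes the libraries of the groups overlapped. With the 20 outermost bins they lay apart at DSP (-0.47, exact permutation p = 0.2) and C1S (-0.49, exact permutation p = 0.2). These values rested on 12 to 33 and 5 to 13 contacts per library, and TERT and SORBS2 still overlapped.

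The p end and the q end of a chromosome met more often, in the median, than other windows so far apart. Contact is given over that expected at the same distance. Its median over 17 chromosomes was 2.29 in growing and 1.83 in RIS cells, against 0.880 and 0.759 over 37599 other pairs of windows at least 20 Mb apart. It was above 1 in all 5 libraries on 11 of 17 chromosomes, and in 8749 of the 37599 other pairs. Each value rested on 10 to 492 contacts per library (median 90). On the longest chromosomes few other pairs lie as far apart as the ends themselves, so the expected value there rests on few pairs. Without the outermost 200 kb the chromosome at the median stood at 1.86 in growing and 1.06 in RIS cells. The other pairs of windows were not matched to the ends for GC or A/B score.

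In RIS cells 2 of the 17 p-q contacts rose and 9 fell, against 16.2% and 37.1% of all such pairs of windows. Contact fell on chromosome 16 from 11.4, 17.1 and 11.6 in growing to 8.31 and 6.08 in RIS libraries (log2 difference -0.86, SE 0.2, adjusted p = 0.00712 by limma). On chromosome 8 it fell from 3.03, 4.15 and 4.64 to 2.08 and 1.58 (log2 difference -1.0, SE 0.17, adjusted p = 0.0021 by limma). On chromosome 9 it fell from 2.05, 1.81 and 2.04 to 1.12 and 0.826 (log2 difference -0.87, SE 0.12, adjusted p = 0.000714 by limma). The groups did not overlap on these 3 chromosomes. It also fell on chromosomes 19 (-0.79), 7 (-0.62), 17 (-0.57), 3 (-0.57), 20 (-0.56) and 18 (-0.33). Relative to the mean contact between chromosomes, chromosomes 17 (-0.17, adjusted p = 0.364) and 18 (0.06, adjusted p = 0.686) were not called by limma, and without the outermost 200 kb chromosome 7 was not (-0.24, adjusted p = 0.362). The calls of chromosomes 4, 7, 16, 17, 18, 19 and 20 were lost without RIS library 2, after which 3 fell and 1 rose. The calls of chromosomes 17, 18 and 19 were lost without growing library 2, that of 7 without growing library 3 and that of 5 without RIS library 1 (adjusted p = 0.0629 by limma). Taken separately in the classes of few and of many duplicates, the difference had the same sign on each of the 11 called chromosomes, but it was -0.16 and -1.19 on chromosome 7 and -0.29 and -0.80 on chromosome 17.

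The rises were on chromosomes 4 and 5. On chromosome 4 the contact was 8.05, 8.53 and 8.5 in the growing and 10.4 and 11.4 in the RIS libraries (log2 difference 0.38, SE 0.091, adjusted p = 0.00981 by limma). On chromosome 5 it was 2.42, 2.31 and 1.94 in the growing and 3.47 and 2.97 in the RIS libraries (log2 difference 0.49, SE 0.11, adjusted p = 0.00675 by limma). Neither held without the outermost 200 kb, where chromosome 4 stood at 0.959 in growing and 1.06 in RIS cells (adjusted p = 0.537 by limma) and chromosome 5 at 2.01 and 2.30 (adjusted p = 0.289 by limma). The 4p and 4q ends share 13879 words of 31 bases. Relative to the mean contact between chromosomes, the value of chromosome 4 was -0.03 and 0 of 17 rose. Contacts between chromosomes made up more of the signal in RIS libraries. Values on this scale thus come out lower in RIS cells than with libraries at the same total. The share of all pairs called on this scale is not given here. The falls of chromosomes 8 (1.86 to 0.840) and 16 (12.2 to 6.59) were as large without the outermost 200 kb. The other 6 chromosomes were not called, with log2 differences of 0.08 (chromosome 1), -0.03 (2), 0.06 (6), -0.02 (10), -0.37 (11) and -0.24 (12). Of these, chromosomes 1 (-0.79) and 2 (-0.95) were called lower by limma relative to the mean contact between chromosomes.

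**Figure D3:**
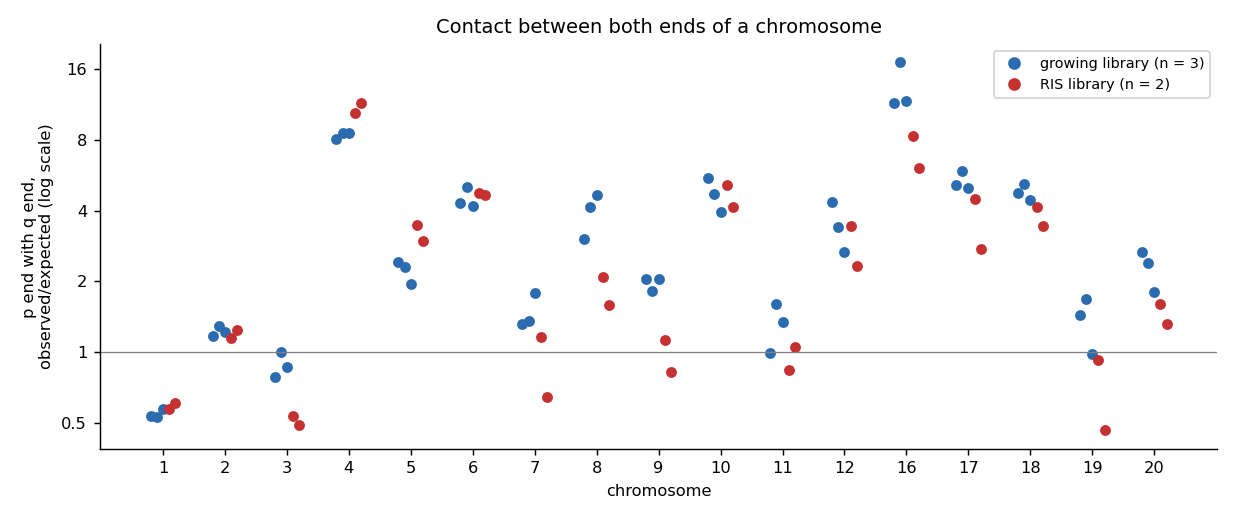
Contact between the p end and the q end of 17 chromosomes (observed over expected, log scale), with 1 point per library. Chromosomes 16 and 4 stand highest, the RIS points lie below the growing ones on chromosomes 8, 9 and 16, and above them on chromosomes 4 and 5.

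Ends of different chromosomes met several times as often as windows of different chromosomes on average. Contact is given relative to the mean contact between chromosomes of the same library. Over all pairs of ends it was 6.01-fold in growing and 5.44-fold in RIS cells, and on the log2 scale 2.65, 2.64 and 2.47 in the growing and 2.54 and 2.34 in the RIS libraries. The groups overlapped. Contact of p ends with p ends was 6.85-fold in growing and 6.02-fold in RIS cells, that of p with q ends 5.98- and 5.44-fold, and that of q with q ends 5.58- and 5.13-fold. The median over single pairs was 3.99-fold in growing and 3.53-fold in RIS cells. In all 5 libraries 546 of 724 pairs of ends (75.4%) lay above the mean, and 15.2% of other pairs of windows.

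The contact of ends with the interior was lower. With interior A windows it was 1.49-fold in growing and 1.22-fold in RIS cells, and with interior B windows 1.04- and 0.916-fold. With the GC-rich interior it was 2.86- and 2.35-fold, and GC-rich interior windows met each other 3.28- and 2.83-fold. Windows beside centromeres met each other 7.97-fold in growing and 6.32-fold in RIS cells. These folds are relative to the mean contact between chromosomes, and such contacts made up more of the signal in RIS libraries. The gap between contact of ends with ends and of ends with interior A windows was 2.05, 2.08 and 1.91 in the growing and 2.20 and 2.13 in the RIS libraries on the log2 scale. It was wider by 0.15 with no overlap, by 0.13 within the libraries with few duplicates and by 0.22 within those with many. Without the outermost 200 kb it was wider by 0.10, and the libraries overlapped.

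**Figure D4:**
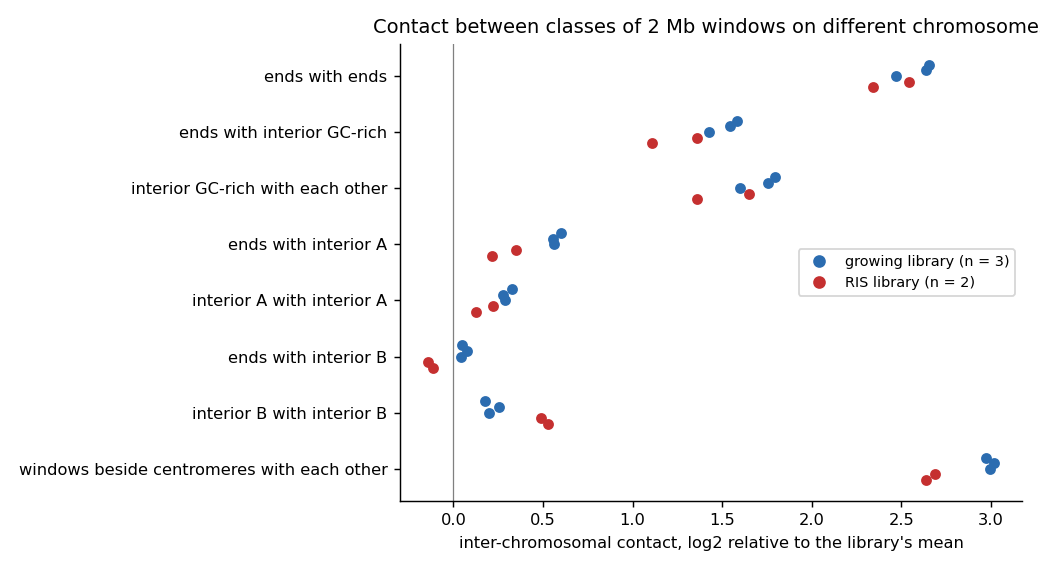
Contact between classes of 2 Mb windows on different chromosomes, log2 relative to the mean of each library, with 1 point per library. Ends with ends lie near 2.5 with overlapping groups, and ends with interior A windows lie near 0.5 with the RIS points below the growing ones.

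Contact with ends of other chromosomes fell off with distance from the edge. In the outermost 200 kb it was 22.1-fold in growing and 20.9-fold in RIS cells. From 200 to 400 kb it was 7.59- and 7.08-fold, from 0.8 to 1.0 Mb 3.97- and 3.44-fold and from 1.8 to 2.0 Mb 2.83- and 2.37-fold. It was still 1.97- and 1.71-fold from 4.8 to 5.0 Mb and 1.62- and 1.39-fold from 9.8 to 10 Mb. The groups overlapped in all 5 steps of 200 kb up to 1.0 Mb. Of the 45 steps from there to 10 Mb they lay apart in 40 and overlapped in 5. Interior windows in general also lay lower in RIS cells on this scale. Their median log2 difference was -0.25, and 51.5% of all windows were called lower by limma. All steps are relative to the mean contact between chromosomes, and such contacts made up more of the signal in RIS libraries. The profile was not drawn with each library scaled to the same total. On that scale the median difference of all windows with ends was positive, so the direction of the steps depends on the scaling.

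**Figure D5:**
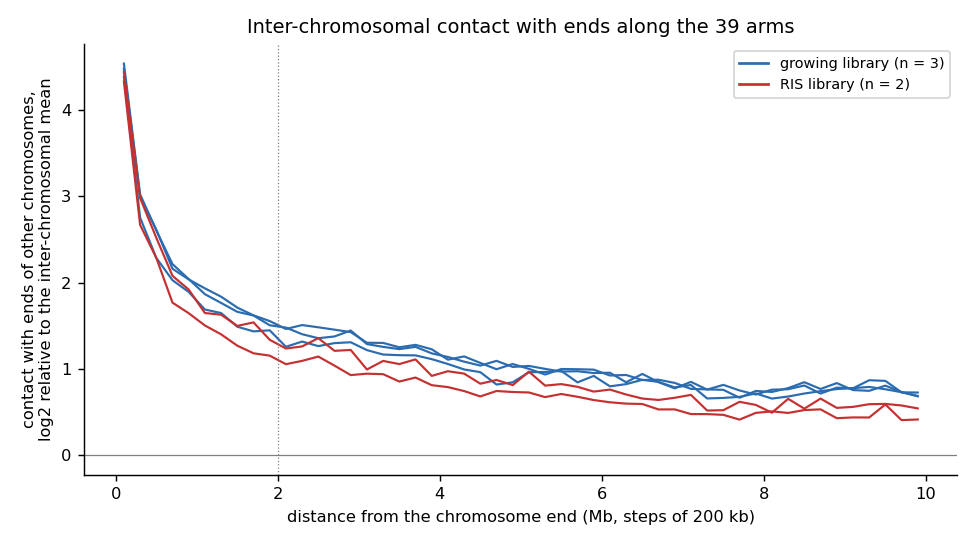
Contact with the ends of other chromosomes (log2 relative to the mean contact between chromosomes) by distance from the edge in steps of 200 kb, mean over 39 arms, with 1 line per library and a dotted line at 2 Mb. All lines fall from above 4 at the edge, and on this scale the RIS lines part downward from the growing ones further inside.

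Among single pairs of ends on different chromosomes, 1 of 724 rose and 15 fell by limma, against 1.02% and 0.769% of all pairs of windows. With each library scaled to the same total, 17 rose and 8 fell (3.84% and 0.495% of all pairs), and the median difference over pairs of ends was 0.18 in place of -0.14. The pair 3q-21q rose (log2 difference 1.1, SE 0.27, adjusted p = 0.0483 by limma), from 38, 29 and 24 contacts in growing to 50 and 57 in RIS libraries. The lowest was 7q-19p (-2.51), which held 2, 1 and 3 contacts in the growing and 0 and 0 in the RIS libraries, so its size is not known. Next came 3p-10q (-2.28), with 5, 24 and 11 contacts in the growing and 2 and 1 in the RIS libraries, and 10q-16q (-2.17), with 5, 14 and 10 and 3 and 1. The pair 18q-19p (-2.04) held 7, 10 and 9 contacts in the growing and 1 and 4 in the RIS libraries, and 8p-19p (-1.92) held 7, 33 and 7 and 3 and 3. Without the outermost 200 kb, 7q-19p and 3p-10q were still called by limma, whereas 3q-21q (0.63, adjusted p = 0.303), 8p-19p (-0.66, adjusted p = 0.602), 10q-16q (-2.14, adjusted p = 0.0533) and 18q-19p (-1.55, adjusted p = 0.0527) were not. A pair of ends held 0 to 439 contacts per library (median 20). Leaving out any 1 library took the falls to 0 to 9 and the rises to 0 or 1.

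The closest pairs in growing cells, named after their values were seen, were 12p-20q, 3q-19p and 11p-17p. Contact of 12p with 20q, whose shared stretch is shown above, was 129-fold in growing and 116-fold in RIS cells (adjusted p = 0.886 by limma), and voom called it lower (-0.44, adjusted p = 0.000677). It was 7.31- and 5.39-fold without the outermost 200 kb. These ends share 12862 words of 31 bases. Contact of 3q with 19p was 71.4-fold in growing and 51.4-fold in RIS cells, and that of 11p with 17p 65.0- and 64.0-fold. The D4Z4-bearing ends 4q and 10q met 30.2-fold in growing and 18.8-fold in RIS cells (adjusted p = 0.224 by limma, and 0.00112 by voom, with a difference of -0.77). It was 1.88- and 1.99-fold without the outermost 200 kb. The 338 pairs with at least 1000 shared words had a median log2 contact of 2.30 in growing and 2.19 in RIS cells. The 386 pairs with fewer had 1.85 and 1.60.

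Each end was also measured against all ends of other chromosomes together. The level was 1.75- to 14.5-fold in growing cells (median 5.63), and 1.33- to 7.40-fold without the outermost 200 kb (median 3.56). Interior windows had a median of 1.11-fold, and 4 of 1301 lay above the median end. In RIS cells 0 of 39 ends rose and 4 fell by limma (0.448% and 51.5% of all windows), with 6 ends at an unadjusted p under 0.05 and 0 rises and 10 falls by voom (0.597% and 47.6% of all windows). There was 1 fall without growing library 1, growing library 2 or RIS library 2, and there were 7 without growing library 3 and 9 without RIS library 1. Contact of 3p was 0.83, 0.95 and 0.65 in the growing and 0.27 and 0.26 in the RIS libraries (log2 difference -0.54, SE 0.102, adjusted p = 0.000101 by limma). It was the end with the least contact with other ends in growing cells. The other falls were at 16p (-0.37), 22q (-0.31) and 20q (-0.29). The values of 1p (-0.08), 4q (-0.22), 5p (-0.33), 10q (-0.21) and 11p (-0.21) did not pass the test. The median difference was -0.15 over the ends and -0.25 over interior windows. With each library scaled to the same total it was 0.19 over the ends, of which 37 of 39 lay above 0, 2 rose and 0 fell by limma (12.8% and 2.46% of all windows).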

How the data were processed

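In-nucleus ligation Hi-C was made from 3 growing and 2 RIS IMR90 cultures. Per the labels and the methods, the authors processed reads with FastQC and HiC-Pro against hg19, and deposited the signal as ICE-balanced contacts per pair of 40 kb bins. Each library had been scaled to 1 total. Whole contacts were recovered for 100% of values (tolerance 0.05, or 2% of larger counts). At large counts this tolerance lets any value pass, so the share speaks for small counts only. Intervals of counts are not given, and the number of libraries limits precision.

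Windows of 2 Mb, pairs of windows and bins were fitted with limma 3.58.1 in R 4.3.3 (lmFit, eBayes with trend) on log2 values, with a pseudocount of 0.25 of the mean for pairs, and Benjamini-Hochberg adjustment over all of them. The study's diffHic test was not repeated. The test in bands was added after seeing the data. The fits were also run on simulated contacts with known fold changes in a part of the rows. That simulation held no shift shared by a whole library, and its outcome is not given here. Ends and pairs named are the 5 highest and lowest among called ones with 1p, 4q, 5p, 10q, 11p and 16p, all p-q contacts, and listed genes. The bands name ends by size after values were seen. The regions and lists were chosen with earlier results of these data known. Gene starts came from GENCODE on GRCh37. The study calls the libraries biological replicates. The limma p-values rest on the spread between these libraries, pooled in part over all windows, bins or pairs of a fit. They thus do not measure the spread of a single end or pair alone. Capture Hi-C was not used here. The sequences of the TTAGGG runs are not reported here.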

Additional observations from a re-analysis of the deposited data

How the results depend on the processing

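Alternatives were leaving out each library, a replicate block, the class of libraries by duplicates, voom on recovered contacts, other scalings, filters and pseudocounts, and narrower ends. Of the values of named ends, chromosomes, pairs and genes under them, 488 kept their side of the threshold (45 of them, called in neither setting, changed sign), 96 lost and 14 gained a call, and 17 turned.

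For local contacts of ends, called higher and lower in RIS, the counts of 5 and 21 became 24 and 2 with voom, 15 and 5 with the median over pairs of 200 kb or less, and 9 and 11 with the outermost 1 Mb only. With voom 8q turned to 0.060, 1p to 0.012, 9q to 0.046, 17q to 0.013, 5p to 0.076, 10q to 0.12 and 11p to 0.025. With the median over pairs of 200 kb or less 9q turned to 0.038, 9p to -0.017 and 10q to 0.17, and with the outermost 1 Mb 10q turned to 0.044. For local contacts of end bins, contacts up to 400 kb gave 322 higher and 182 lower and IRF4 turned to 0.15, and, called in neither setting, IFITM1 and IFITM2 to 0.13, SERPINF1 to 0.077 and TYMS to 0.016. Without 1 library 113 to 169 were higher and 290 to 360 lower.

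For p end with q end, 0 were higher relative to the inter-chromosomal mean and 0 without the outermost 200 kb, 5 were lower in the outermost 1 Mb only, and without 1 library 1 to 2 were higher and 3 to 10 lower. Relative to the inter-chromosomal mean chromosome 1 turned to -0.79, 4 to -0.030 and 18 to 0.062. That mean took more of the signal in RIS libraries, which lowers RIS values on this scale.

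For ends of different chromosomes, the counts of 1 higher and 15 lower became 2 and 34 with the replicate block, 7 and 36 with voom, 17 and 8 with each library at the same total, 2 and 23 without the outermost 200 kb and 0 and 0 with the outermost 1 Mb only. With the duplicate class block 3 were higher, with a pseudocount of 0.1 0 were, and without 1 library 0 to 1 were higher and 0 to 9 lower. For each end with all other ends, the 0 higher and 4 lower became 2 and 0 with each library at the same total, where 22q turned to 0.037 and 20q to 0.050, and 1 and 1 with the outermost 1 Mb only. There were 15 lower with the duplicate class block, 10 with voom, 1 without the outermost 200 kb and 1 to 9 without 1 library. Scaling each library to the same total moved the median difference of all pairs of windows to 0.23 and of all windows with ends to 0.10.

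In the bands, without 1 library 11 to 20 ends were lower at 240-600 kb and 1 to 3 higher at 640 kb-1.2 Mb, and the replicate block gave 5 higher over 1.2 Mb. For contact with the outermost bins, ISG15 turned to 0.067 with 5 bins and stood at -0.21 with 20, and DSP stood at 0.29 and -0.47. With 5 bins C1S gave no value, as libraries held 0 contacts. The cause of these changes was not tested. Shares of all windows, bins or pairs called stand above for some of the alternatives only. For the others the counts cannot tell a change of the ends from a change of the whole fit.

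Numbers 1 and 2 are shared by both groups, but the labels tie them to nothing, and same-numbered libraries did not deviate together (r from -0.45 to 0.18 over the tables). With the replicate block local contacts gave 4 higher and 21 lower, bins 171 and 386, p-q contacts 2 and 11, and each end with other ends 0 and 6. Pairs of ends held a median of 20 contacts per library, which limits what single pairs can show.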
